A study of Rattus norvegicus with 6 samples.

Results

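The 6 genes described here, Gzma, Gzmk, Gzmbl2, Gzmm, Prf1 and Nkg7, encode parts of the cytotoxic granules of lymphocytes, and they were taken by name from the 16383 genes with values in the deposited count table. Their levels were followed in 25547 single cells of rat lung, in NK cells, T cells and the other classes that marker genes define, and between lungs given bleomycin (BLM) and control lungs. The rats were Sprague Dawley animals of 8 to 10 weeks of age. The BLM group consisted of 3 rats given 5 mg/kg BLM once into the trachea, and the control group of 3 rats given saline by the same route. All lungs were taken on day 28, and pieces of 3 mm3 were digested into cell suspensions for the BD Rhapsody system, in which beads in microwells tag each transcript with a unique molecular identifier (UMI). All groups therefore share the instillation and the digestion, and each rat contributed a small piece of lung. No gate selected lymphocytes, so these cells were present as the digestion released them.

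Cytotoxic lymphocytes kill target cells by releasing granules. Perforin, the product of Prf1, forms pores in the membrane of the target, and granzymes, serine proteases stored in the same granules, pass into the target and cleave proteins that start cell death. Gzma encodes a granzyme that cleaves after lysine or arginine, Gzmk a granzyme with like preference, Gzmm a granzyme that cleaves after methionine or leucine, and Gzmbl2 is a rat gene of the granzyme B family. Nkg7 encodes a membrane protein of the granules that takes part in their release. NK cells carry such granules before they meet a target, whereas T cells, mainly those with CD8, acquire them as they differentiate.

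Promoter sequences from RefSeq (assembly GRCr8) were found under the symbols of 5 of the 6 genes, each covering 250 bases before and 50 after the start of transcription. Gzmbl2 was not among them. The letters TGTGGT or their reverse complement ACCACA, which RUNX factors can bind, were present in all 5 windows and in 17.3% of the 33469 promoters of the table. The letters GGTGTGA or TCACACC, which T-box factors such as T-bet (Tbx21) and Eomes can bind, were present in the windows of Gzmk and Gzmm and in 3.83% of all promoters. The letters AGGAAG or CTTCCT, which ETS factors can bind, were present in the windows of Prf1 and Nkg7 and in 34.5% of all promoters. Both strands were searched, the motifs do not overlap each other in letters, and a match is a description of the window and not a site of binding. The 3 windows below are shown because they hold the T-box letters (Gzmk, Gzmm) or belong to the pore-forming partner of the granzymes (Prf1), and capitals mark the matches, written 5′ to 3′ on the strand of the gene.
Gzmk (chr2:46581966-46582265, minus strand): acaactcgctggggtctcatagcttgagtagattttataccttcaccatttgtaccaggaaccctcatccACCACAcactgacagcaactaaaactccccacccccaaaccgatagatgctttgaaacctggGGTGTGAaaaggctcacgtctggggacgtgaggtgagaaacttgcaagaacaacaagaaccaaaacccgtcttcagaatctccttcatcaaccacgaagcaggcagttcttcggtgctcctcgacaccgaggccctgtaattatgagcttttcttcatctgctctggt
Gzmm (chr7:10667207-10667506, minus strand): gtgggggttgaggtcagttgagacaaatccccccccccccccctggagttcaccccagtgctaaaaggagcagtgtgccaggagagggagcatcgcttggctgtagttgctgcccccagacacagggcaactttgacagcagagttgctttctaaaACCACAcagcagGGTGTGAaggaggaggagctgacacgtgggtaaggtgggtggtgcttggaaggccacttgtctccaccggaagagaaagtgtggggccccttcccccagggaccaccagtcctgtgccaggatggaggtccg
Prf1 (chr20:29788790-29789089, plus strand): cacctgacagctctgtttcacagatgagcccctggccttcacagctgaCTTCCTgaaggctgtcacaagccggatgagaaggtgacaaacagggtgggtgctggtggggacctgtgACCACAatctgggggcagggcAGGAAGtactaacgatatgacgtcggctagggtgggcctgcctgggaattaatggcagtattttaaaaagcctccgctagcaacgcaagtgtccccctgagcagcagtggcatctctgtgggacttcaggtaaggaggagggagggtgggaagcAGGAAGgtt
In Gzmm the RUNX letters began 94 bases and the T-box letters 82 bases before the start site, next to each other, whereas in Gzmk they began 180 and 118 bases before it.

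The 6 libraries held 2568 to 7481 cells and 3860028 to 16598959 UMIs, with median depths of 1066 to 1840 UMIs per cell, and 314 barcodes occurred in more than 1 library, which concerned 27 of the NK cell-like and 61 of the T cell-like cells. Cells were clustered without the granzyme genes, Prf1 and Nkg7, so that none of the 6 genes could place a cell in a class, and clusters were named from other markers. The NK cell-like class had 1260 cells (median 1017.5 UMIs) and the T cell-like class 2231 cells (median 893 UMIs), and every rat gave at least 122 and 176 of them. In NK cell-like cells the activating receptor gene Ncr1 was detected in 46.0% of cells, Klrd1 in 63.3% and the T cell receptor component Cd3e in 0.397%. The summed level of 10 NK markers was 5330 to 6480 CPM (UMIs of a gene per 1000000 UMIs of the class in a rat) in the NK cell-like class, against 380 to 1010 CPM in the T cell-like class, while 10 T cell markers summed to 107 to 155 CPM in the former and 3315 to 4568 CPM in the latter. Cd8a was detected in 555 NK cell-like cells and Cd8b in 0.159% of them, and rat NK cells are known to carry CD8 made of alpha chains alone. Ncr1, Klrd1, Cd3e and the summed markers belong to the lists that named the clusters. Their levels therefore describe the labels and do not test them.

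All 6 genes had their highest level in NK cell-like cells, and this class held most of their UMIs. It was 4.93% of all cells but carried 96.7% of the 9112 Gzma UMIs, 92.8% of the 5743 Gzmk UMIs and 91.9% of the 4503 Gzmbl2 UMIs. Its part was smaller for Prf1 (88.8% of 7142 UMIs), Nkg7 (84.8% of 4125 UMIs) and Gzmm (84.4% of 3534 UMIs). T cell-like cells came next in UMIs for every gene, with 12.1% of those of Gzmm, 9.02% of Nkg7, 7.31% of Prf1, 5.12% of Gzmk, 3.55% of Gzmbl2 and 0.933% of Gzma. Since clusters define the classes, their levels are given as a description without a test.

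**Figure D1:**
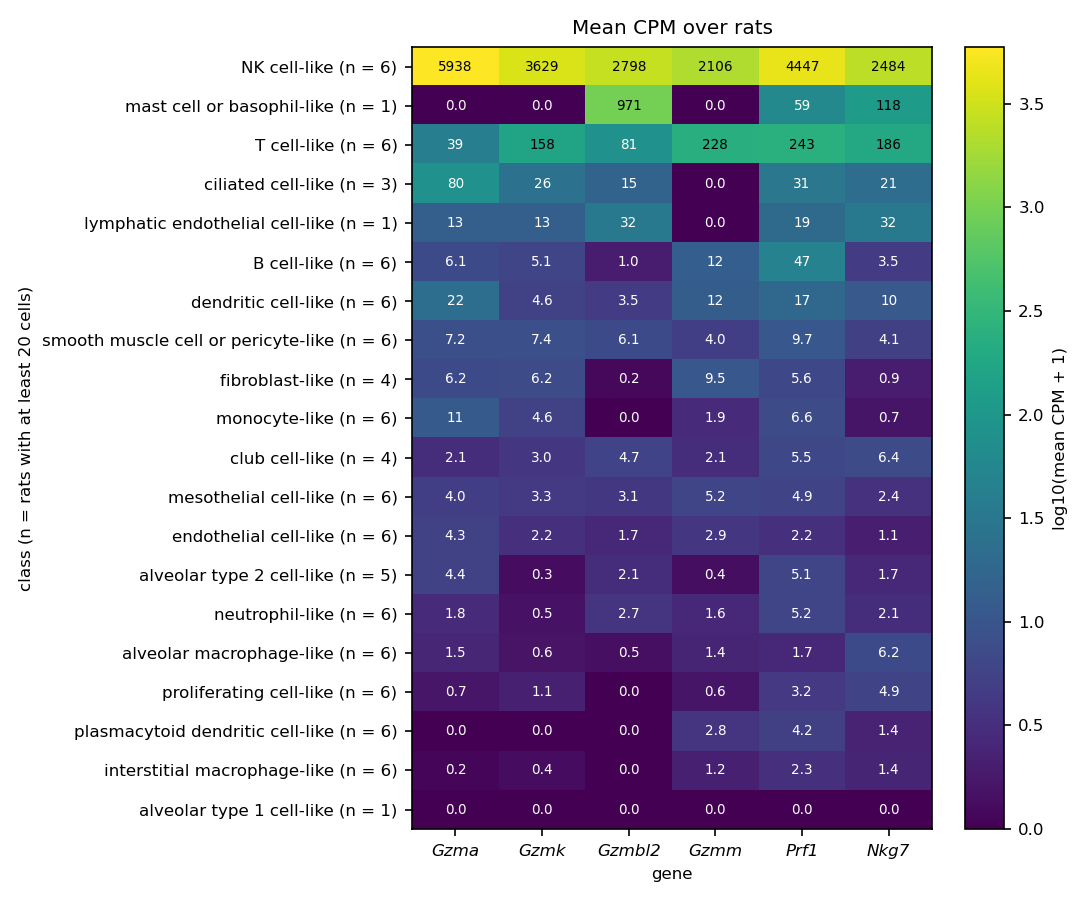
Mean CPM of each of the 6 genes (columns) in each class of cells (rows), over the rats that had at least 20 cells of the class (n in the row label). Colour gives log10(mean CPM + 1). The top row, NK cell-like cells, is the brightest for all 6 genes, from 2106 CPM for Gzmm to 5938 CPM for Gzma.

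For Gzma, the mean level over the 6 rats was 5938 CPM in NK cell-like cells (range 4649 to 7368 CPM) and 39.5 CPM in T cell-like cells (range 18.4 to 52.7 CPM). Between them stood the ciliated cell-like class at 80.1 CPM, but all 19 of its Gzma UMIs came from the 25 ciliated cell-like cells of BLM rat 3, and the other 2 rats with enough of these cells had none. For Gzmk the corresponding means were 3629 CPM and 158 CPM, so that the level in NK cell-like cells was 23.0 times that in T cell-like cells. For Prf1 they were 4447 CPM and 243 CPM, a ratio of 18.3, and for Nkg7 2484 CPM and 186 CPM, a ratio of 13.3. For Gzmm they were 2106 CPM and 228 CPM, and the ratio of 9.22 was the lowest of these. In rats with at least 20 cells of a class, NK cell-like values overlapped those of the next class for none of the 6 genes.

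Gzmbl2 departed from this order. Mast cell or basophil-like cells, 70 cells in all, stood between NK cell-like (2798 CPM) and T cell-like cells (80.5 CPM), at 971 CPM in the 1 rat that had at least 20 of them. The 128 Gzmbl2 UMIs of this small class came from all 6 rats, with 14, 7 and 13 UMIs in the controls and 47, 33 and 14 UMIs in the BLM rats. Over all 6 rats the Gzmbl2 level of the class ran from 671 to 2639 CPM. Its top lay within the NK cell-like range of 2076 to 3477 CPM. Nkg7 was also detected there in all 6 rats, with 27 UMIs in all. Gzma, Gzmk and Gzmm had 4, 1 and 1 UMIs in the class, all of them in control rat 2, and Prf1 had 3 UMIs. The class, whose 70 cells gave 92766 UMIs, thus held Gzmbl2 and Nkg7 in every rat and the other 4 genes in 1 or 2 rats. Rat granzyme B family genes are near-identical copies, and reads may have been split between them or shared with other copies, so the Gzmbl2 level is uncertain in each class.

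The share of cells with a UMI depends on depth, and therefore every cell was thinned to 500 UMIs. In NK cell-like cells the mean share with a UMI was then 77.4% for Prf1, 75.8% for Gzmk, 70.4% for Gzma, 68.5% for Nkg7, 64.4% for Gzmm and 59.5% for Gzmbl2. Without thinning these shares were 86.9%, 84.4%, 74.0%, 81.6%, 78.4% and 70.4%. In T cell-like cells the thinned share was 10.3% for Prf1, 7.05% for Gzmm, 5.29% for Nkg7, 3.998% for Gzmk, 1.77% for Gzmbl2 and 0.979% for Gzma. B cell-like cells (median 590 UMIs) and alveolar type 2 cell-like cells (median 3441 UMIs) were taken as classes that should lack these genes. B cell-like cells had 75 UMIs of Prf1, 16 of Gzmm and 11 of Gzma. In NK cell-like cells Gzma had the most (8808, against 6340 of Prf1 and 2981 of Gzmm). The part of free RNA in the B cell-like UMIs was not tested. In B cell-like cells the thinned share was 1.25% for Prf1 and at most 0.590% for the other genes, and in alveolar type 2 cell-like cells it was at most 0.219% for any of them. For Gzma it was 0.171% in B cell-like and 0.193% in alveolar type 2 cell-like cells, so the low share in T cell-like cells still lay above both.

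NK cell-like cells mostly held the 6 genes together. Before thinning, all 6 genes had a UMI in 45.2% of NK cell-like cells, 5 genes in 22.2%, and none in 1.35%. In T cell-like cells 74.4% had none of the 6 genes and 0.134% had all of them. B cell-like cells had none in 97.2% and alveolar type 2 cell-like cells in 97.9%. Among the 1094 NK cell-like cells with at least 500 UMIs, 986 had a Prf1 UMI and 962 an Nkg7 UMI, and 884 had both.

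**Figure D2:**
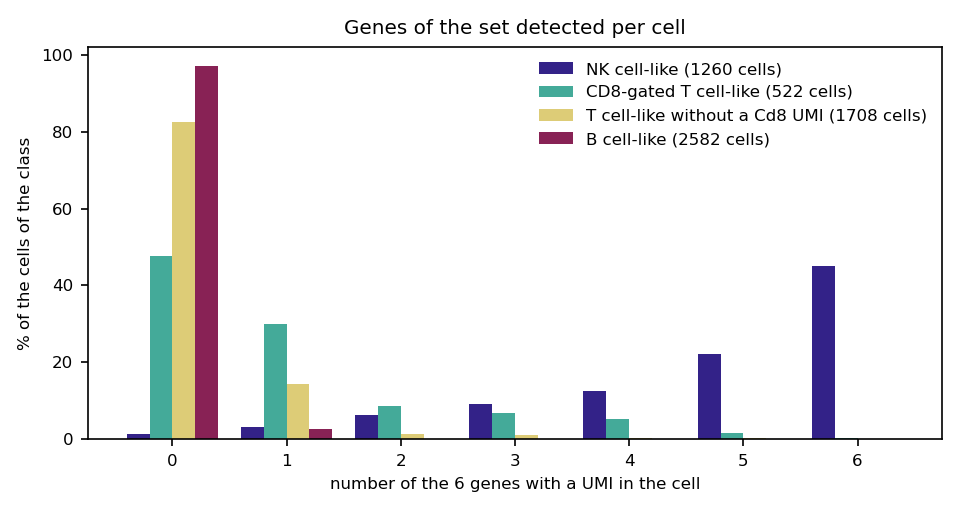
Number of the 6 genes with a UMI in a cell (horizontal axis) and the share of the cells of 4 classes (vertical axis, % of the class). NK cell-like cells peak at 6 genes (45.2%), B cell-like cells at 0 (97.2%), and CD8-gated T cell-like cells lie between, with 47.7% at 0.

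In T cells UMIs of the genes were found together in smaller shares of cells. Of 2004 T cell-like cells with at least 500 UMIs, 94 had a Gzmk UMI, and 72 of these (76.6%) also had an Nkg7 UMI. Of the 28 cells with a Gzma UMI, 21 (75.0%) had Nkg7 and 17 (60.7%) had Gzmk. By contrast, 342 cells had a Prf1 UMI, and 47 of these (13.7%) had Nkg7, 53 (15.5%) had Gzmm and 29 (8.48%) had Gzmk. Most T cells with a UMI of Gzma or Gzmk therefore also had one of Nkg7, and fewer of those with a Prf1 UMI had one of each of these partners. At these depths and levels a T cell is read with less than 1 UMI of each gene on average, so a missing UMI does not show that a cell lacks the gene. These overlaps are descriptions over cells that share libraries, and no test was made of them.

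To ask what BLM did to these genes in the cells that carry them, UMIs of NK cell-like cells were summed per rat and compared with edgeR. Gzma stood at 5566, 4649 and 5316 CPM in control rats 1 to 3 and at 7368, 6485 and 6244 CPM in BLM rats 1 to 3. Gzmk stood at 2895, 3361 and 3283 CPM in controls and at 4233, 4210 and 3792 CPM in BLM rats. Gzmbl2 stood at 2076, 2490 and 2594 CPM in controls and at 3477, 3170 and 2978 CPM in BLM rats. For each of these 3 granzymes all BLM rats lay above all control rats. Such a separation with BLM above was seen in 6.19% of the 4200 genes tested in this class.

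The other 3 genes overlapped between the groups. Gzmm was at 1948, 2382 and 2017 CPM in controls and at 2156, 1977 and 2159 CPM in BLM rats. Prf1 was at 4249, 4887 and 4079 CPM in controls and at 4845, 4135 and 4485 CPM in BLM rats. Nkg7 was at 2072, 2598 and 2574 CPM in controls and at 2269, 2505 and 2889 CPM in BLM rats. For Prf1 the BLM values lay within the range of the controls, whereas for Nkg7 that of BLM rat 3 lay above it. Such overlap does not show that the levels were equal.

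**Figure D3:**
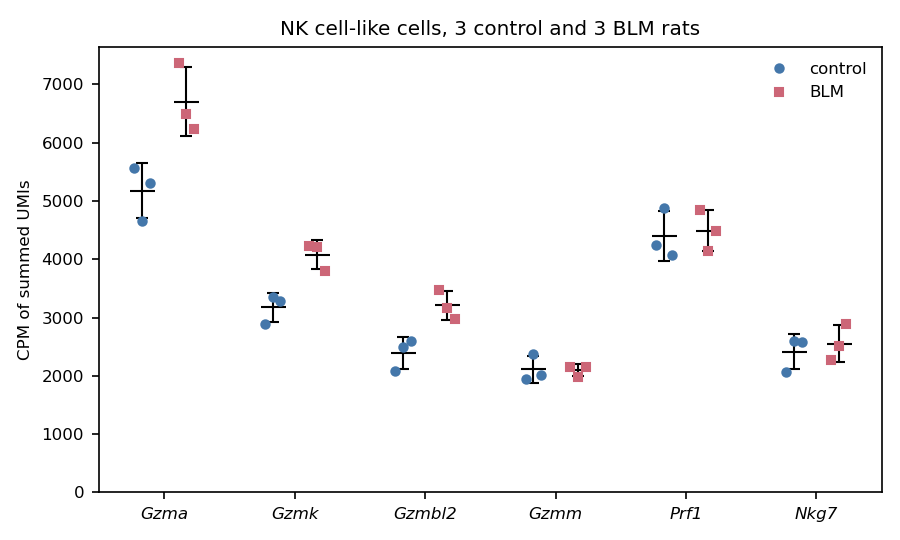
CPM of each gene in NK cell-like cells (vertical axis) for the 3 control rats (circles) and the 3 BLM rats (squares), with bars for the mean ± SD of each group. The BLM squares of Gzma, Gzmk and Gzmbl2 lie above all control circles, and those of Gzmm, Prf1 and Nkg7 overlap them.

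None of the 6 genes passed the edgeR quasi-likelihood test after Benjamini-Hochberg adjustment over all 4200 genes (background 0.0476% called, 2 genes), and none passed with DESeq2. The log2 fold change of Gzmbl2 was 0.44 (SE 0.16, 95% interval 0.10 to 0.78), with an unadjusted p of 0.0139 and an adjusted p of 0.487 by edgeR. For Gzma it was 0.39 (SE 0.16, interval 0.06 to 0.72), with an unadjusted p of 0.0229 and an adjusted p of 0.567 by edgeR, and for Gzmk 0.37 (SE 0.15, interval 0.05 to 0.70), with 0.0270 and 0.567. These 3 were the genes among the 6 with an unadjusted p under 0.05, as were 322 of the 4200 genes. The differences of Gzmm (0.00, interval -0.33 to 0.33), Prf1 (0.04, interval -0.29 to 0.37) and Nkg7 (0.09, interval -0.26 to 0.44) had no sign that held, since leaving out single rats turned each of them. The median of the 6 log2 fold changes was 0.23, against -0.01 over all genes tested. The 3 granzymes stayed higher in BLM rats in each of the 15 alternative fits, with log2 fold changes of 0.30 to 0.52. None passed in any of them (adjusted p of 0.292 to 0.999 by edgeR or DESeq2). The alternatives reuse the same rats, and groups that do not overlap keep their order when 1 rat is left out. The stable sign is therefore no further support.

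Marker levels of these cells are given beside the granzymes, and their ranges overlapped between the groups. The summed level of 9 proliferation markers was 1258 to 1706 CPM in control and 604 to 1484 CPM in BLM rats. The 10 NK markers summed to 5877 to 6480 CPM in control and to 5330 to 6094 CPM in BLM rats, with 9 or 10 of them above 0 in each rat and Klrb1 at 0 in 5 rats. The 10 T cell markers summed to 115 to 146 CPM in control and 107 to 155 CPM in BLM rats, with 4 to 9 of them above 0, and 8 alveolar type 2 markers, which should be absent, to 202 to 718 CPM and 104 to 240 CPM. The median depth of NK cell-like cells was 979.5 to 1042.5 UMIs in control and 951 to 1092 UMIs in BLM rats. Their part in the levels of the granzymes was not tested.

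The share of NK cell-like cells with a UMI, thinned to 500 UMIs, was also compared between the groups, as a measure per cell. For Gzmk it was 69.9% ± 4.17 (SD, n = 3) in control and 81.7% ± 0.892 in BLM rats, and for Gzmbl2 at 53.4% ± 4.97 and 65.6% ± 3.05. A two-sided exact permutation test over rats gave p = 0.1 for each, which is the smallest p that 3 against 3 rats allow. For Gzma the shares were 64.9% ± 7.72 and 76.0% ± 5.89 (exact permutation p = 0.2, n = 3). For Gzmm they were 64.7% ± 3.55 and 64.1% ± 0.997, for Prf1 75.9% ± 2.56 and 78.8% ± 0.981, and for Nkg7 67.9% ± 6.90 and 69.0% ± 3.03, with exact permutation p of 0.9, 0.2 and 0.9. With 3 rats in each group this test could not reach 0.05.

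**Figure D4:**
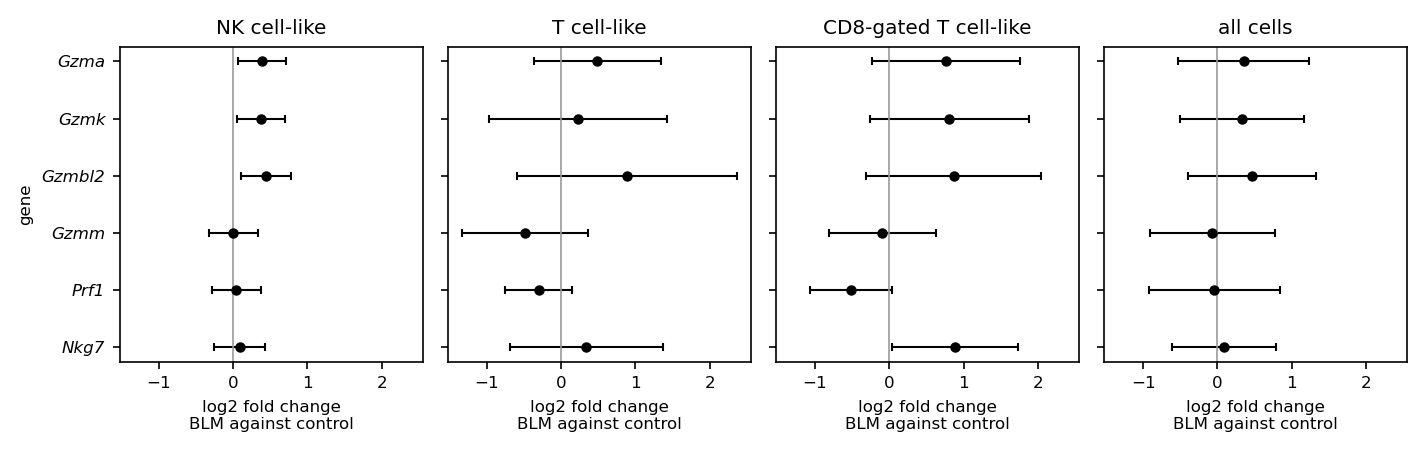
Log2 fold change of BLM against control (horizontal axis, points) with 95% intervals from edgeR (lines) for each gene in NK cell-like, T cell-like and CD8-gated T cell-like cells and in the sum of all cells. The intervals of Gzma, Gzmk and Gzmbl2 in NK cell-like cells and of Nkg7 in CD8-gated cells lie above 0 without adjustment, and all other intervals include 0.

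Within the T cell-like class, cells with a Cd8 UMI held most of the granzyme UMIs. A CD8 gate was set as a UMI of Cd8a or Cd8b and none of Cd4, without reference to the 6 genes, and held 522 cells (44 to 150 per rat, median 1041.5 UMIs). Of the gated cells, 465 had a Cd8a UMI and 214 a Cd8b UMI. Cd8a was also detected in 555 NK cell-like cells, so a Cd8a UMI does not tell T cells from NK cells. The part of NK cells in the gate was not tested. Gated cells were compared within rats with the 1708 T cell-like cells that had no Cd8 UMI (median 846 UMIs), since too few cells had a Cd4 UMI for a gate of their own. Gzmm was at 590 ± 263 CPM (SD, n = 6 rats) in gated cells and at 72.2 ± 58.7 CPM in the others. Gzmk was at 382 ± 242 CPM and 72.5 ± 71.7 CPM, and Nkg7 at 482 ± 287 CPM and 67.1 ± 55.2 CPM. For these 3 genes, and for Gzma and Prf1, the gated cells were higher in 6 of 6 rats.

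Gzmm was higher in gated cells by a log2 fold change of 3.06 (SE 0.23, adjusted p = 1.23e-11 by edgeR), Nkg7 by 3.02 (SE 0.24, adjusted p = 4.47e-11) and Gzmk by 2.60 (SE 0.30, adjusted p = 1.42e-07). Of the 2615 genes tested, 8.41% were called, 4.05% as higher and 4.36% as lower in gated cells. Prf1 differed less, at 330 ± 83.8 CPM in gated cells and 205 ± 49.2 CPM in the others, with a log2 fold change of 0.65 (SE 0.16, edgeR adjusted p = 0.00885). That call was lost with DESeq2 (adjusted p = 0.0754), with no filter on low counts (edgeR adjusted p = 0.0559) and within the larger T cell-like cluster alone (edgeR adjusted p = 0.151). Gzma and Gzmbl2 did not pass the filter on low counts and were not tested in this fit. Without the filter both passed, with log2 fold changes of 2.58 for Gzma (edgeR adjusted p = 5.57e-10) and 1.59 for Gzmbl2 (edgeR adjusted p = 3.05e-06). Without control rat 2 Gzmbl2 passed the filter and the test (1.73, edgeR adjusted p = 0.00014). Gzma had 60 UMIs in gated cells and 25 in the others, at 104 ± 49.3 CPM and 15.5 ± 15.1 CPM, and Gzmbl2 had 85 and 75 UMIs, at 145 ± 119 CPM and 53.0 ± 67.0 CPM, higher in gated cells in 5 of 6 rats.

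**Figure D5:**
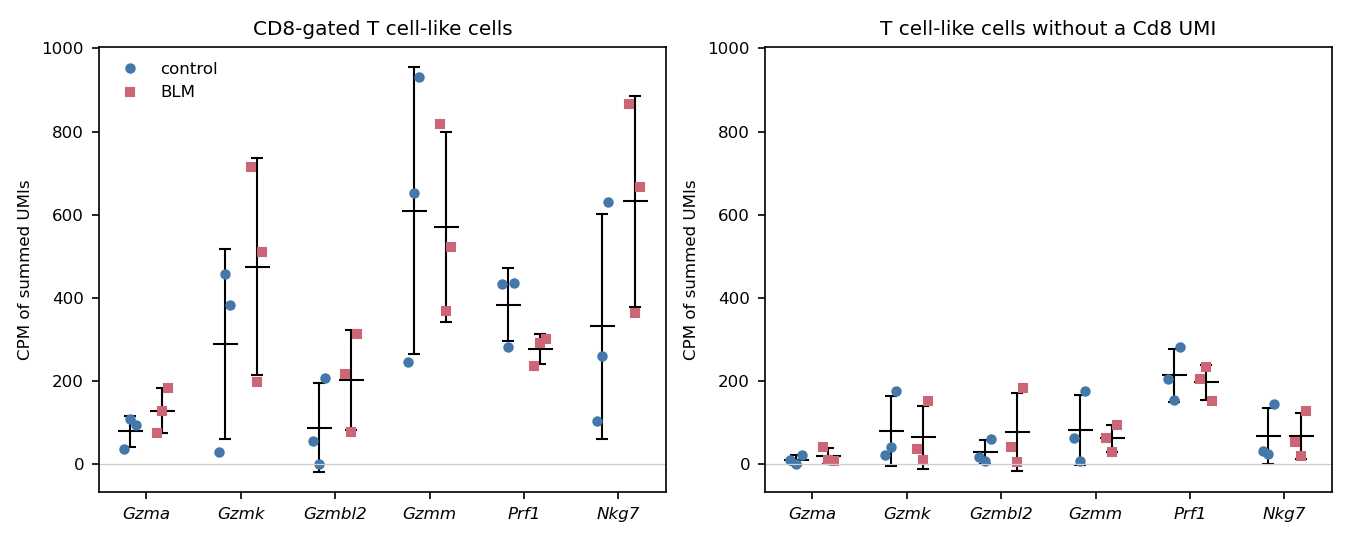
CPM of each gene (vertical axis) in CD8-gated T cell-like cells (left) and in T cell-like cells without a Cd8 UMI (right), for 3 control rats (circles) and 3 BLM rats (squares), with the mean ± SD of each group. Gzmm, Gzmk and Nkg7 are higher in the left panel, whereas the circles and squares overlap for every gene in both panels.

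The placing of these cells depended on the genes described. When the granzymes, Prf1 and Nkg7 were left in the clustering, 210 T cell-like cells joined the NK cell-like class, and 21 of them had none of the 6 genes. Under that clustering only Prf1 of the 6 genes was tested between gated and other cells and passed (edgeR adjusted p = 0.0158). Gzmk, Gzmm and Nkg7 then fell below the filter on low counts, as Gzma and Gzmbl2 did before. With a finer clustering, a group of 202 T cell-like cells led by Ccl5, Cd3e and Gzmm stood at 1275 CPM for Gzmm, 1086 CPM for Nkg7, 749 CPM for Gzmk, 518 CPM for Gzmbl2, 423 CPM for Prf1 and 198 CPM for Gzma. The summed NK markers were 643 to 1460 CPM in CD8-gated cells, above the range of all T cell-like cells in its highest rats. Klrd1 was at a mean of 322 CPM in gated cells and 124 CPM in T cell-like cells without a Cd8 UMI. Ncr1 was at 13 and 9.8 CPM in the same cells. The part of NK cells or NK cell RNA in the levels of the 6 genes in gated cells was not tested.

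The 2 clusters of the T cell-like class differed in the 6 genes. The larger, cluster 5, had 1561 cells and was led by Cd3e, Cd3g and Lef1, a factor of naive T cells. The other, cluster 16, had 670 cells and was led by Il2ra, Gata3, Icos and Il1rl1. In cluster 16 there were 2 Gzma, 4 Gzmk, 4 Gzmm, 5 Nkg7 and 16 Gzmbl2 UMIs, against 78 of Prf1. Its share of the T cell-like class was 18.5%, 15.9% and 15.6% in control rats and 35.3%, 24.6% and 61.8% in BLM rats. The 10 T cell markers of the whole class summed to 4506, 4363 and 4568 CPM in control rats and 3903, 4239 and 3315 CPM in BLM rats. Whether all cells of cluster 16 are T cells was not tested.

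No difference between BLM and control in T cell-like cells was larger than the spread between rats for any of the 6 genes. Gzmk was at 24.5, 155 and 264 CPM in controls and at 221, 50.6 and 234 CPM in BLM rats. Gzmm was at 122, 184 and 496 CPM in controls and at 270, 105 and 192 CPM in BLM rats. Nkg7 was at 55.1, 89.2 and 351 CPM in controls and at 275, 95.6 and 251 CPM in BLM rats. In each of these genes control rat 3 was high and control rat 1 low, and BLM rat 2, which had most T cell-like cells (792), was the lowest of the BLM rats.

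Prf1 was at 278, 190 and 347 CPM in controls and at 214, 246 and 186 CPM in BLM rats of this class. Gzma was at 18.4, 29.7 and 52.7 CPM in controls and at 51.5, 36.6 and 47.9 CPM in BLM rats. Gzmbl2 was at 30.6, 5.94 and 123 CPM in controls and at 90.1, 21.1 and 213 CPM in BLM rats. The groups overlapped for all 6 genes, and none passed with edgeR or, of the 4 genes with an adjusted p there, with DESeq2, nor did any have an unadjusted p under 0.05, whereas 0.801% of the 5243 genes tested were called. The log2 fold changes were 0.49 (95% interval -0.37 to 1.35) for Gzma, 0.23 (-0.97 to 1.43) for Gzmk, 0.89 (-0.59 to 2.37) for Gzmbl2, -0.49 (-1.34 to 0.36) for Gzmm, -0.30 (-0.75 to 0.15) for Prf1 and 0.34 (-0.69 to 1.36) for Nkg7. For every gene but Prf1 the interval included a log2 change of 1 or -1, so that these values do not tell a 2-fold change from none. Within cluster 5 alone the values were 0.94 for Gzma, 0.82 for Gzmk, 1.61 for Gzmbl2, 0.01 for Gzmm, -0.17 for Prf1 and 0.89 for Nkg7, and none passed (adjusted p at least 0.595 by edgeR).

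In CD8-gated T cells the groups also overlapped for all 6 genes, and none passed with edgeR or DESeq2 (0.179% of 2231 genes called). Nkg7 was at 104, 261 and 631 CPM in controls and at 866, 363 and 667 CPM in BLM rats, a log2 fold change of 0.88 (SE 0.41, interval 0.04 to 1.73, edgeR adjusted p = 0.513), and it was the only one of the 6 genes with an unadjusted p under 0.05 (0.0415). Prf1 was at 433, 283 and 435 CPM in controls and at 235, 293 and 301 CPM in BLM rats, a log2 fold change of -0.51 (SE 0.27, interval -1.06 to 0.04, edgeR adjusted p = 0.591). Gzma, Gzmk and Gzmbl2 had log2 fold changes of 0.76, 0.81 and 0.87 and Gzmm of -0.09, all with intervals that included 0. Gzmbl2 had no UMI in the 44 gated cells of control rat 2, which allows up to 65.2 CPM.

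The effect of BLM in NK cell-like cells was tested against that in T cell-like cells in the same rats. None of the 6 genes passed (0.182% of 5509 genes called, no gene among the 6 with an unadjusted p under 0.05, and none by DESeq2). The differences of the log2 fold changes, NK cell-like minus T cell-like, were -0.10 for Gzma, 0.16 for Gzmk, -0.29 for Gzmbl2, 0.45 for Gzmm, 0.36 for Prf1 and -0.31 for Nkg7, and the intervals spanned -1.56 to 1.21 over the 6 genes. The separation of the 3 granzymes in NK cell-like cells is therefore not shown to be particular to these cells.

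Summed over all cells of a lung, the 6 genes depended on BLM rat 1. Gzma was at 162, 176 and 110 CPM in controls and at 328, 127 and 128 CPM in BLM rats, and Prf1 at 138, 195 and 91.5 CPM in controls and at 225, 92.9 and 98.6 CPM in BLM rats. All 6 genes had their highest value in BLM rat 1, where NK cell-like cells were 8.18% of all cells, against 3.76% and 4.37% in the other BLM rats and 5.52%, 4.75% and 4.41% in the controls. The groups overlapped for all 6 genes, and none passed with edgeR or DESeq2 and none had an unadjusted p under 0.05 (17.4% of 13346 genes called). The log2 fold changes lay between -0.07 (Gzmm) and 0.46 (Gzmbl2). Without BLM rat 1 those of Gzma, Gzmk and Gzmbl2 became -0.27, -0.22 and -0.13. In such sums fewer cells of a type and less RNA per cell cannot be told apart.

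The share of NK cell-like cells did not differ beyond the spread between rats, at 4.89% ± 0.564 in control and 5.43% ± 2.40 in BLM rats (exact permutation p = 1.0, n = 3 in each group). The share of T cell-like cells was 6.77% ± 1.29 and 10.1% ± 0.691, with all BLM rats above all control rats (exact permutation p = 0.1, n = 3, the smallest possible). Most of the 21 classes were separated in this way, in one direction or the other. Endothelial cell-like cells went from 1.89% to 11.8% and alveolar macrophage-like cells from 35.2% to 15.3%. Shares add up to a whole, so the classes do not move independently, and the separation is not particular to T cell-like cells. On cell counts, edgeR gave log2 fold changes of 0.15 (SE 0.35, adjusted p = 0.721) and 0.58 (SE 0.25, adjusted p = 0.0667) over 21 classes. Without control rat 1, the T cell-like share passed (adjusted p = 0.0408).

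Of 11 other classes with at least 20 cells in every rat, 2 had 1 of the 6 genes past the filter on low counts. Nkg7 in alveolar macrophage-like cells was at 2.95, 3.39 and 2.64 CPM in controls and at 15.01, 6.04 and 6.87 CPM in BLM rats. The log2 fold change was 1.63 (SE 0.42, edgeR adjusted p = 0.0335, 11.1% of 9249 genes called). The control levels lay near the filter on low counts, and the BLM rats carried the gene past it. The call is therefore no independent support for a rise. All BLM rats lay above all control rats, as they did for 18.1% of genes in this class. The call was lost without control rat 1 (adjusted p = 0.115), without control rat 3 (0.0932) and without BLM rat 1 (0.116, log2 fold change 1.09). The values rest on 12, 5 and 19 UMIs in controls and 40, 24 and 17 UMIs in BLM rats. The 10 NK markers summed to 22.1 to 25.1 CPM in controls and to 13.3 to 27.2 CPM in BLM rats of this class. Nkg7 had 117 UMIs there and Gzma 28, and in NK cell-like cells Gzma had 8808 and Nkg7 3498 UMIs. The part of NK cell RNA in the Nkg7 UMIs of this class was not tested.

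In B cell-like cells Prf1 stood out from the other genes. It had 75 UMIs there, at 45.1, 71.7 and 61.3 CPM in controls and 18.8, 45.9 and 36.7 CPM in BLM rats, while Gzma had 11 UMIs, Gzmm 16 and Gzmbl2 2. NK cell-like cells had 6340 Prf1 UMIs and more, 8808, of Gzma. The 10 NK markers summed to 0 to 18.1 CPM in B cell-like cells, and the 10 T cell markers to 13.5 to 125 CPM. The part of NK or T cell RNA in these Prf1 UMIs was not tested. The log2 fold change of Prf1 between the groups was -0.74 (SE 0.40, edgeR adjusted p = 0.442, 0.49% of 4083 genes called).

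Lists of 85 other genes of cytotoxic lymphocytes were followed beside the 6, of which 74 were in the table. In NK cell-like cells 52 of these were tested, and 1 rose (1.92%, beside 0.0476% of all genes tested) and none fell. That gene, Ccl3, encodes a chemokine that draws monocytes and lymphocytes, and it was at 718, 842 and 648 CPM in controls and at 2520, 2155 and 1244 CPM in BLM rats (log2 fold change 1.46, SE 0.23, edgeR adjusted p = 0.0139). Its call was lost with the replicate block (adjusted p = 0.110), with the finer clustering (0.0662), without control rat 1 (0.156) and without BLM rat 1 (0.0699). In T cell-like cells 47 were tested, and Ccl3 (0.97, SE 0.21, edgeR adjusted p = 0.0463) and Srgn (0.66, SE 0.15, edgeR adjusted p = 0.0475) rose. These were 4.26% of the tested list genes, beside 0.801% of all genes. Srgn encodes serglycin, the proteoglycan that binds granzymes and perforin in the granule, and it was at 1282, 1426 and 1300 CPM in controls and at 2155, 1798 and 2237 CPM in BLM rats. Each of these calls was lost in 5 of the 6 fits that left out a rat, all but that without BLM rat 2. That of Srgn was also lost with the replicate block (edgeR adjusted p = 0.0764), RLE scaling (0.0514), the finer clustering (0.0570) and cells of at least 500 UMIs (0.0555). That of Ccl3 was also lost with the finer clustering (edgeR adjusted p = 0.0838), the 6 genes and other granzymes kept in the clustering (0.363), cells of at least 500 UMIs (0.0555) and the cells of highest UMIs left out (0.202). Srgn passed neither within cluster 5 alone (0.56, edgeR adjusted p = 0.209) nor within cluster 16 alone (0.21, edgeR adjusted p = 0.731), whose shares of the class differed between the rats as given above. The part of these shares in the Srgn values was not tested. Ccl3 passed within cluster 5 alone (1.46, edgeR adjusted p = 0.0326).

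None of the tested genes for granule transport (8 in NK cell-like, 7 in T cell-like cells), protease inhibitors (2 and 2), receptors (5 and 4), signalling adaptors (9 and 8), transcription factors (8 and 9) or driving cytokines and their receptors (7 and 6) passed in either class. Their medians of log2 fold changes in NK cell-like cells ran from -0.34 for granule transport to 0.35 for the inhibitors, around -0.01 for all genes. Of the 6 granule contents and maturation genes none passed in NK cell-like cells, with a median of 0.13. In CD8-gated cells 32 list genes were tested and Ccl3 passed again (1.59, SE 0.27, edgeR adjusted p = 0.00935, up to 0.279 under alternatives). Srgn was just past the threshold there (0.94, SE 0.20, edgeR adjusted p = 0.0514) and was not called. It passed under some alternatives, such as no filter on low counts (edgeR adjusted p = 0.00767), and not under others (up to 0.283 without 1 rat). In whole lung sums 5 of 68 tested list genes were higher and 7 lower in BLM rats, a share of 17.6% beside 17.4% of all genes tested. None of 56 passed for a difference in effect between NK cell-like and T cell-like cells.

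Other cytotoxic genes were also higher in CD8-gated T cells. Of 34 tested, 11 (32.4%) were higher and 5 (14.7%) lower in gated cells than in the other T cell-like cells, beside 4.05% and 4.36% of all genes tested. The chemokine genes Ccl5 (2.71), Ccl4 (2.51) and Ccl3 (2.00) were higher on the log2 scale, as were Tbx21 (2.67), which encodes the T-box factor T-bet, Ctsw (2.36), a protease of cytotoxic lymphocytes, and Il2rb (1.35), a receptor chain for interleukin 15. Gata3 (-2.28), the factor of type 2 helper cells, Tox (-1.35) and Srgn (-0.57) were lower. Gene by gene, these edgeR calls had adjusted p of 7.80e-10 for Tbx21, 3.55e-10 for Ctsw and 4.47e-11 for Gata3.

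Other granzyme genes were rarer. Gzmb itself had 13 UMIs in all cells, Gzmbl1 265 and Gzmbl3 946. In NK cell-like cells Gzmbl3 ranged from 284 to 953 CPM in controls and from 535 to 688 CPM in BLM rats, and Gzmbl1 from 180 to 202 CPM and from 150 to 179 CPM. In the 70 mast cell or basophil-like cells Gzmbl3 had 21 UMIs and Gzmbl1 3 UMIs, each in 3 rats. Gzmbl3 ran from 0 to 449 CPM and Gzmbl1 from 0 to 286 CPM over the rats, and both ranges overlapped those of NK cell-like cells. In the 1 rat with at least 20 of these cells they were at 294 and 29.4 CPM. Gzmb had no UMI there and ranged from 0 to 36.0 CPM in NK cell-like cells.

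The genes whose pattern over the 20 named classes was most like that of each gene were found by the Pearson correlation of log2(CPM + 1), over 10255 genes with at least 20 CPM in 1 class. Gzma was most like Gzmk (r = 0.979), Klrg1 and Klrc1, and Gzmk like Klrc1 (0.980), Gzma and Klre1, of which the Klr genes encode lectin-like receptors of NK cells. Gzmm was most like Prf1 (0.972), Txk and Tbx21, and Prf1 like Gzmm, Ccl5 (0.952) and Gzmk. Gzmbl2 was most like LOC691670 (0.951), Nkg7 (0.950) and Gzmbl3 (0.932), and Nkg7 like Rab37 (0.957), Gzmbl3 (0.955) and Gzmbl2. The 20 classes share libraries and rats, and the high values follow in part from the NK cell-like class alone, so no p is given.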

How the data were processed

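Single-cell RNA of 3 control and 3 BLM rat lungs was profiled. The authors deposited raw UMI counts per cell and gene (unit: counts, not normalized), made from BD Rhapsody reads. Which aligner and annotation made them is not given in the sources used here. A mouse build, mm9, is the only one in the submitters' processing notes. The header of the counts lacked a name for its first column, so values were read 1 field to the right. Cell names carry N1 to N3 and F1 to F3, which the labels do not spell out and which were matched to control and BLM lungs by number and by the study's total of cells per group (10538 and 15009). Cells have no deposited annotation.

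All deposited cells were used and no doublets were removed. Counts were scaled to 10000 per cell, and the 2000 most variable genes without granzymes, Prf1 and Nkg7 were clustered (scanpy 1.11.5, 30 components, 15 neighbours, Leiden resolution 1.0, leidenalg 0.10.2, Python 3.11.15). Each cluster took the name of the marker list with the highest mean log2 difference from the other clusters. At least 3 markers of that list had to exceed their mean in the other clusters by a log2 of more than 1. A cluster stayed unnamed where another list held more of its leading genes, or where depth was low and its own list held none of them. A cluster led by Gnat3, which the alveolar type 2 list would have named, was left unnamed once its leading genes were known. For each rat and class the UMIs were added up, filtered (filterByExpr), scaled by TMM and tested with edgeR 4.0.16 in R 4.3.3 (glmQLFit, glmQLFTest, limma 3.58.1) with p-values adjusted by Benjamini-Hochberg over the whole table at a threshold of 0.05. Intervals are at 95%. The comparison of gates and of treatment effects between classes had the rat as a block. Tests on single values were two-sided exact permutation tests. With 3 rats per group, the tests of BLM against control set a difference against the spread between these few rats. The fits with the rat as a block set it against the spread that remains within rats. Limits for a count of 0 use 3 counts and cover counting error only.

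Named were all 6 genes in every comparison, every list gene past the threshold in NK cell-like or T cell-like cells with examples of its list, and the 3 genes most like each of the 6. Naming list genes of the CD8 gate, cluster-leading genes and other granzymes was chosen after their values were seen. The genes and lists were chosen with earlier results of these data known. As alternatives, results were recomputed with DESeq2 1.42.0, with RLE scaling, without the filter, without each rat in turn, with a replicate block, resolutions 0.5 and 2.0, the genes kept in the clustering, cells of at least 500 UMIs, and cells above the 95th percentile of UMIs of their rat and class left out. The planned comparison with CD4-gated cells gave way to cells without a Cd8 UMI, and fits within single T cell-like clusters were added after seeing the data. On simulated data with 4200 genes drawn as in NK cell-like cells, the edgeR fit recovered 50% of genes changed by a log2 of 1 and 97.7% of those changed by 2. In like simulations, changes by a log2 of 1 were recovered in 66.3% of genes in T cell-like cells and 49.4% in CD8-gated cells. The values were 44.8% in whole lung sums, 90.9% for the CD8 gate and 16% for the difference of effects. Changes under a log2 of 1 were not simulated. Numbers of replicates did not pair the rats (correlations of same-numbered rats in NK cell-like cells -0.15 to -0.05).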

Additional observations from a re-analysis of the deposited data

How the results depend on the processing

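Of 475 values of the 6 genes under an alternative, 424 kept their direction and their side of the threshold, 45 changed sign without passing it, 6 lost a call and none gained one. These leave out genes without a value in the fit as reported, of which 2 passed elsewhere, Gzma and Gzmbl2 between CD8-gated and other T cells without the filter, and Gzmbl2 also without control rat 2. There 4 of the 6 genes passed as reported and 4 to 5 without 1 rat. In NK cell-like cells Gzmm turned to -0.067 at resolution 2.0 and -0.044 without cells above the 95th percentile of UMIs. In T cell-like cells Gzmm was 0.011 in cluster 5 alone and Prf1 0.062 in cluster 16 alone. For the treatment effect in NK cell-like against T cell-like cells, Gzma turned to 0.35 at resolution 2.0, to 0.40 with the genes kept in the clustering and to 0.42 without the cells of highest UMIs. Gzmk turned to -0.028 with DESeq2 and -0.00097 at resolution 2.0, and with the genes kept in the clustering Gzmbl2 turned to 0.51 and Nkg7 to 1.12. With those genes kept in, 1 of the 6 genes was tested and passed between CD8-gated and other T cells, in place of 4 tested and passed. The log2 change in the share of NK cell-like cells was -0.093 with TMM scaling. The share of NK cell-like cells with a Gzmm UMI differed by 2.41 points at 1000 UMIs and 0.57 without thinning, and that with Nkg7 by -0.55 at 1000 UMIs. For these changes of sign the cause was not tested.

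Leaving out 1 rat gave log2 fold changes in NK cell-like cells of -0.068 to 0.12 for Gzmm, -0.030 to 0.15 for Prf1 and -0.023 to 0.17 for Nkg7. In T cell-like cells they were -0.40 to 1.14 for Gzmk, -0.074 to 2.22 for Gzmbl2, -0.90 to 0.37 for Gzmm and -0.17 to 1.60 for Nkg7. The difference of effects ran from -0.57 to 0.33 for Gzma, -0.60 to 0.79 for Gzmk, -1.43 to 0.64 for Gzmbl2, -0.26 to 0.83 for Gzmm and -1.30 to 0.12 for Nkg7. In whole lung sums the values were -0.27 to 0.62 for Gzma, -0.22 to 0.58 for Gzmk, -0.13 to 0.70 for Gzmbl2, -0.61 to 0.17 for Gzmm, -0.59 to 0.20 for Prf1 and -0.30 to 0.30 for Nkg7. In CD8-gated cells Gzmm ran from -0.52 to 0.47. The log2 change in the share ran from -0.27 to 0.36 for NK cell-like and 0.45 to 0.72 for T cell-like cells. In alveolar macrophage-like cells 0 to 1 genes passed, with Nkg7 at 1.09 to 1.89. Shares with a UMI differed by -2.08 to 1.32 points for Gzmm and -2.78 to 3.73 for Nkg7.

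Same-numbered rats did not deviate together (correlations of -0.15 to 0.10), so the numbers were not taken to pair them. With the replicate block, 1 gene in place of 2 passed in NK cell-like, 40 in place of 42 in T cell-like, 13 in place of 4 in CD8-gated cells and 1759 in place of 2324 in whole lung sums, and Gzmm in CD8-gated cells turned to 0.0063. None of the 6 genes passed between BLM and control with the block in these 4 units. Over all genes, counts without the filter were 44 in NK cell-like cells, 220 in T cell-like cells, 37 for the difference of effects, 42 in CD8-gated cells and 358 for the CD8 gate. With DESeq2 the difference of effects had 0 genes in place of 10 and the CD8 gate 98 in place of 220. Resolution 2.0 gave 1 gene in NK cell-like and 2 in CD8-gated cells, resolution 0.5 gave 9 and the genes kept in the clustering 7 in CD8-gated cells, and cells of at least 500 UMIs gave 6 for the difference of effects. Cluster 5 alone gave 11 genes and cluster 16 alone 3 genes in T cell-like cells, and cluster 5 alone 128 for the gate. Without 1 rat the counts ran from 1 to 9 in NK cell-like cells, 6 to 106 in T cell-like cells, 0 to 22 for the difference of effects, 1181 to 2328 in whole lung sums, 1 to 23 in CD8-gated cells and 132 to 218 for the gate.

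The comparison with CD4-gated cells was not run, since too few T cell-like cells had a Cd4 UMI. With 3 rats per group and few granzyme UMIs in T cells, differences there have wide intervals.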
